A study of Mus musculus with 6 samples.

Results

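The RNA of 40 genes of the kinetochore and the spindle assembly checkpoint was compared between control mouse submandibular glands and glands treated with blebbistatin, a small molecule that blocks the motor of non-muscle myosin II. The genes were chosen by symbol from the deposited gene table, which holds 24067 genes. They are every gene named Cenp with a single following letter except Cenpj, together with 23 subunits and partners listed by name. The rule itself uses no measured value, but it was set with earlier results of these data known. All 40 had a mean of at least 1 FPKM (fragments scaled to transcript length and library total), the minimum for testing that 11540 genes passed.

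Glands came from ICR mouse embryos at embryonic day 13 (E13), and 3 control libraries were set against 3 libraries from blebbistatin-treated glands. No transgene or mutation is named for either group. The sources used here do not give the dose, duration or vehicle, nor how many glands made a library, and the series title speaks of epithelial buds where the tissue label names the gland. Nothing in the labels ties the replicates of a group to separate cultures or litters, so the spread that p-values measure may be technical.

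The kinetochore is the protein assembly that forms on centromeric chromatin and holds spindle microtubules during mitosis. An inner layer, the constitutive centromere-associated network, rests on nucleosomes that carry the histone variant CENP-A, and an outer layer, the KMN network, grips the microtubules. Kinetochores without microtubules recruit the checkpoint proteins, which hold back the anaphase-promoting complex until every chromosome is attached. Many of these genes are transcribed mainly in G2 and mitosis, so their RNA in a tissue is widely read as a sign of dividing cells.

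The depth estimated from the smallest steps between FPKM values was 29200000 to 30200000 fragments in 5 libraries and 35600000 in control replicate 2. Log values of the 11540 genes correlated between libraries with Pearson r from 0.971 to 0.983. Control replicate 1 stood apart for long and short transcripts: over all genes tested its median deviation from the gene mean was 0.17 (log2) for transcripts under 1500 nt and -0.13 for those of 5000 nt and over, against -0.086 and 0.097 in control replicate 2. It was also the lowest of the 6 libraries for 32 of the 40 genes described here, a position it took for 23.0% of all genes tested. Values without it are therefore given beside the results. Among markers, epithelial genes summed to 1717 to 2072 FPKM in controls and 1540 to 1842 FPKM in treated libraries, with Epcam at 371 to 444 FPKM, and were thus present throughout. Of 10 mesenchymal markers, 2 (Twist1 and Prrx1) stayed under 1 FPKM in every library. Most of the mesenchymal sum was Vim (276 to 370 FPKM), and the next highest marker was Col3a1, at 0.806 to 7.26 FPKM.

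Kinetochore and checkpoint transcripts stood slightly higher in the blebbistatin libraries as a group, and no single gene passed the test. Of the 40 genes, 38 had a higher mean log2 level in treated glands, beside 55.2% of all genes tested. The median log2 fold change was 0.32 (range -0.11 to 0.48), beside 0.015 over all genes tested. With limma and Benjamini-Hochberg adjustment over all genes, 0 of 40 had an adjusted p under 0.05 (background 0.078%), and the lowest adjusted p was 0.170, for Cenph. At an unadjusted p under 0.05, 25 of the 40 were higher (background 4.46%) and 0 were lower. In 27 genes every treated library lay above every control (background 7.48%), and in 0 genes did every treated library lie below. In bulk tissue, more cells that express a gene and more of its RNA per cell cannot be told apart.

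Without control replicate 1 the median was 0.22 and 39 means were higher, and the number with an unadjusted p under 0.05 was 18. Leaving out blebbistatin replicate 1 gave 16, and leaving out blebbistatin replicate 3 also gave 16. The mean deviation over the 40 genes was -0.33, -0.032 and -0.077 in control replicates 1, 2 and 3 and 0.17, 0.12 and 0.15 in the treated replicates, so the other two controls also lay under all 3 treated libraries, by a smaller margin. With a trend on transcript length removed from each library, an alternative added after the data were seen, the median was 0.31 and 38 means were higher.

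**Figure D1:**
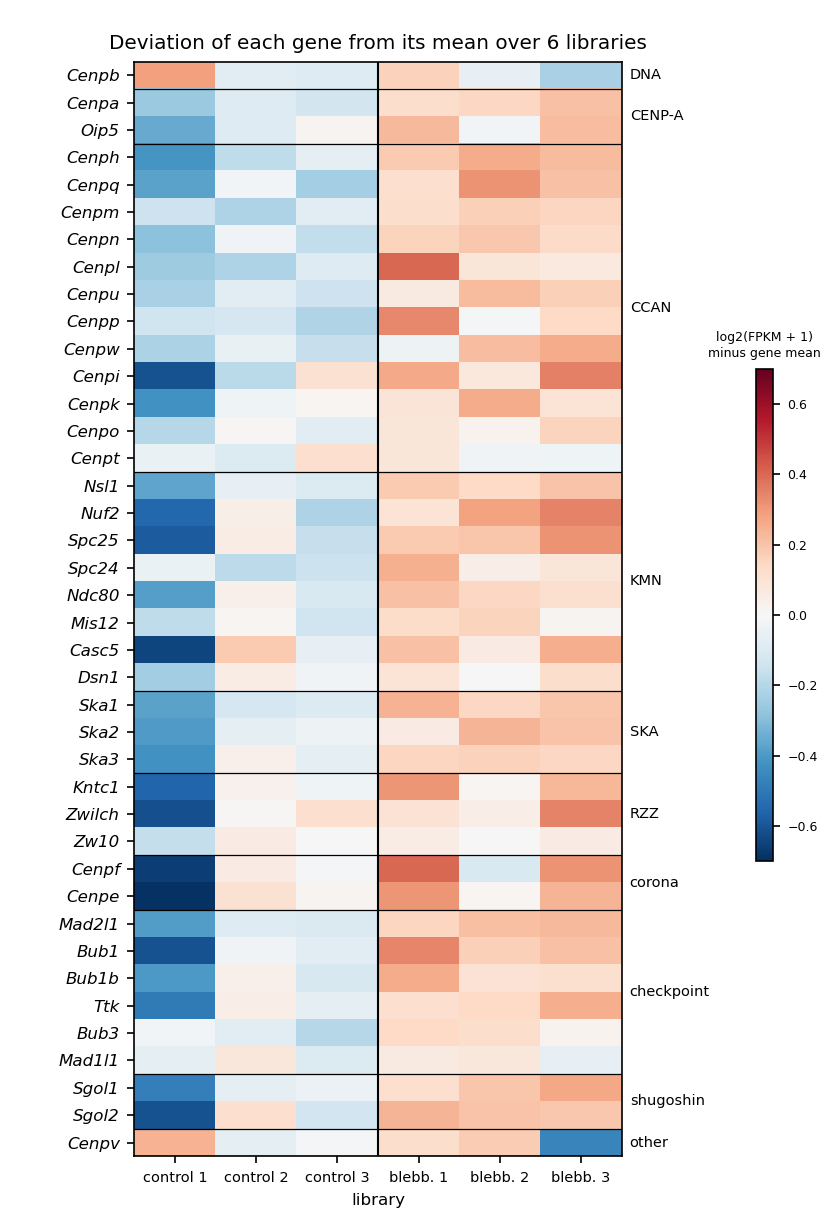
Deviation of log2(FPKM + 1) from the gene's mean over 6 libraries (color scale, log2) for each of the 40 genes (vertical axis, by role) in each library (horizontal axis). Control replicate 1 is the lowest library for 32 genes, and only Cenpb and Cenpv have a lower mean in the treated libraries.

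**Figure D2:**
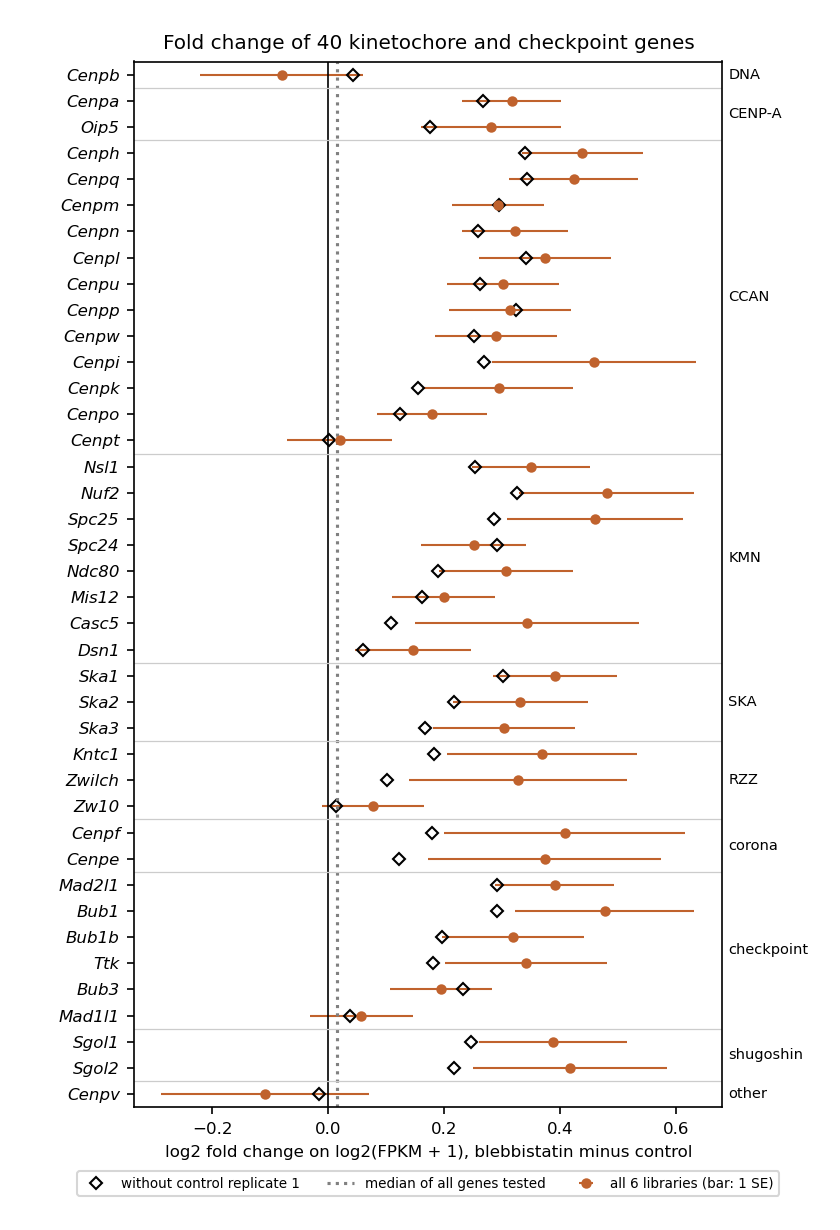
Log2 fold change (horizontal axis, blebbistatin minus control on log2(FPKM + 1)) of each gene (vertical axis, by role) with all 6 libraries (filled circles, bars of 1 moderated SE) and without control replicate 1 (open diamonds). The median moves from 0.32 to 0.22 when that library is left out, and the dotted line marks the median of all genes tested, 0.015.

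The promoters of the 40 genes were read for letters known from cell cycle genes. These letters are the same in control and treated glands. RefSeq windows (GRCm38.p6, 250 bases before to 50 after the annotated start) were matched to 36 of the 40 genes by gene number, and Nsl1, Spc24, Ska1 and Zwilch had no match. The search covered 3 motifs on both strands: TTTGAA, the core of the cell cycle homology region bound by the MuvB complex, CCAAT, bound by NF-Y, and TTTNNCGC, an E2F-type site in which N is any base. A gene counted once if any of its windows, 41 in all, held the motif. Matches of different motifs overlapped in 2 pairs. A match is a description of letters, not a binding site. The promoters printed below were picked by hand and need not be typical of the set. The promoters shown are 4 with CCAAT, the motif held by most of the genes, and 2 with no match, each from 170 bases before to 30 bases after the start, 5′ to 3′ on the strand of the gene, with matches on either strand in capitals. CCAAT on the opposite strand reads ATTGG, and TTTGAA reads TTCAAA.
Bub1: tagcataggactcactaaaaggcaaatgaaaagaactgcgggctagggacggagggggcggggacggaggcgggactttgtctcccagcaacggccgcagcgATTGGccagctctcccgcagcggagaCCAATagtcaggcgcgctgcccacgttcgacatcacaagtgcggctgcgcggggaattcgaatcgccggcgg
Cenpa: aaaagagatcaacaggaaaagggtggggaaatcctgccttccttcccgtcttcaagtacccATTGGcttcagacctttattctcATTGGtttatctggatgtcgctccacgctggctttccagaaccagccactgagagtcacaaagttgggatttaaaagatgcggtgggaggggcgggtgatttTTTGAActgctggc
Spc25: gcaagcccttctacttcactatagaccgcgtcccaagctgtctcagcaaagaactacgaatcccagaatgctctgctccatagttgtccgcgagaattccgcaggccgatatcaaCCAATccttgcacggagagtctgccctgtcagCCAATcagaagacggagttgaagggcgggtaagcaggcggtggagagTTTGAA
Ttk: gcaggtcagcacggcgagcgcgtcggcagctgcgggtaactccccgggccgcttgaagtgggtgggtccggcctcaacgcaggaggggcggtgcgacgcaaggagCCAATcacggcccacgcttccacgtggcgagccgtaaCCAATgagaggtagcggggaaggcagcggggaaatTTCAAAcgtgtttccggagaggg
Cenpt: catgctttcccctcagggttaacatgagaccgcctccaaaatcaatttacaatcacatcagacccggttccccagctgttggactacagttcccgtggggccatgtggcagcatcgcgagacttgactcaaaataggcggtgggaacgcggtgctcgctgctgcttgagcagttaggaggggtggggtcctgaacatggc
Nuf2: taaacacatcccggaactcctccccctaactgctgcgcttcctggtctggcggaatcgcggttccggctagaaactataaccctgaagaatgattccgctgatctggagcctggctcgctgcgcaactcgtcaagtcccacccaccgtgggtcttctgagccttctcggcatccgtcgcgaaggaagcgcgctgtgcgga

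The stretches lie at chr2:127831830-127832029 (minus strand) for Bub1, chr5:30666716-30666915 (plus strand) for Cenpa, chr2:69206184-69206383 (minus strand) for Spc25, chr9:83834519-83834718 (plus strand) for Ttk, chr8:105851979-105852178 (minus strand) for Cenpt and chr1:169531435-169531634 (minus strand) for Nuf2. Bub1 held CCAAT letters 2 times and Cenpa 2 times with TTTGAA just after the start, and Spc25 and Ttk had the same pairing of 2 CCAAT matches with 1 TTTGAA. Cenpt and Nuf2 held none of the 3 motifs in the whole window, although their log2 fold changes, 0.02 and 0.48, were among the lowest and the highest of the 40. Over the 36 genes, CCAAT was present in 23 (63.9%), beside 43.6% of the 9252 tested genes with a window and 41.1% of all 27025 genes with one. TTTGAA was present in 15 (41.7%), beside 14.0% of tested genes and 20.2% of all genes. The pair of both was present in 11 (30.6%), beside 7.13% of tested genes, and TTTNNCGC in 8 (22.2%), beside 10.5%. No motif was found in 7 genes (19.4%), beside 45.0% of tested genes. The 23 genes with CCAAT had a median log2 fold change of 0.34 with a lowest value of 0.19, and the 13 without it a median of 0.18 that spanned -0.11 to 0.48. Genes with and without TTTGAA had medians of 0.32 and 0.31, and those with and without TTTNNCGC 0.29 and 0.33. No split was tested.

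At the base of the kinetochore, neither the centromeric nucleosome gene nor its loading factor passed the test, and both had a higher mean in treated glands. Cenpa, the histone H3 variant that marks the centromere (chromosome 5, 30666886 to 30674837, plus strand, 4 to 7 exons), measured 37.5, 42.3 and 41.2 FPKM in control replicates 1, 2 and 3 and 49.1, 49.99 and 52.2 FPKM in treated replicates 1, 2 and 3. Every treated library lay above every control, and the log2 fold change was 0.32 ± 0.086 (SE; adjusted p = 0.221; 0.27 without control replicate 1). Oip5, a subunit of the Mis18 complex that prepares centromeres for new CENP-A (chromosome 2, 119609532 to 119618505, minus strand, 6 exons), measured 7.68, 9.38 and 10.2 FPKM in controls and 11.9, 9.92 and 11.8 FPKM in treated libraries. Treated replicate 2 lay inside the control range, and the log2 fold change was 0.28 ± 0.12 (adjusted p = 0.524; 0.18 without control replicate 1). Exons of Oip5 overlap Nusap1 on the opposite strand. Because no source states a strand setting, fragments inside the overlap cannot be told apart, which leaves the value of Oip5 uncertain. Cenpb, which binds a box in centromeric satellite DNA (chromosome 2, 131177289 to 131180012, minus strand, 1 exon), had the highest level per length of the 40, with 99.5, 77.5 and 76.4 FPKM in controls and 91.4, 78.2 and 69.6 FPKM in treated libraries. Its groups overlapped and control replicate 1 was the highest library. The log2 fold change was -0.08 ± 0.14 (adjusted p = 0.988), and it turned to 0.042 without control replicate 1 and 0.01 without blebbistatin replicate 3.

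The constitutive centromere-associated network was represented by 12 genes, all with a higher mean in treated glands. Their median log2 fold change was 0.31, and 9 of 12 had an unadjusted p under 0.05 (background 4.46%). The adjusted test was passed by 0, and in 10 the groups did not overlap (background 7.48%). Without control replicate 1 the median was 0.27, and this role moved least among those with 2 or more genes when that library was left out. The symbol rule left out network subunits whose symbols it does not match. Their log2 fold changes were 0.12 for Cenpc1, 0.17 for Apitd1, 0.07 for Itgb3bp and -0.025 for Stra13. In each of them the groups overlapped, so the counts above do not cover the whole network. Cenph, a subunit of the CENP-H, I, K and M branch (chromosome 13, 100759686 to 100775899, minus strand, 9 exons), measured 13.1, 15.6 and 17.0 FPKM in controls and 20.3, 21.4 and 20.8 FPKM in treated libraries. The treated libraries lay close together and above all controls, at 20.8 ± 0.590 against 15.2 ± 1.97 FPKM (mean ± SD, n = 3), and the log2 fold change of 0.44 ± 0.10 had the smallest p of the 40 genes (adjusted p = 0.170; 0.34 without control replicate 1). Cenpq, of the CENP-O, P, Q and U branch that helps to bind microtubules and the kinase PLK1 (chromosome 17, 40923055 to 40934551, minus strand, 9 exons), gave 9.34, 12.2 and 10.3 FPKM in controls and 13.5, 15.7 and 14.4 FPKM after treatment. Its lowest treated library exceeded its highest control, and the log2 fold change was 0.42 ± 0.11 (adjusted p = 0.202; 0.34 without control replicate 1). Cenpm, a partner of Cenph in the same branch (chromosome 15, 82233776 to 82244747, minus strand, 5 to 6 exons), measured 11.6, 11.0 and 12.3 FPKM in controls and 14.3, 14.7 and 14.5 FPKM in treated libraries. Control replicate 1 was not the lowest control for Cenpm, and its log2 fold change was 0.29 ± 0.08 with all libraries and 0.29 without that replicate (adjusted p = 0.223).

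The other network genes among the 40 had log2 fold changes from 0.02 ± 0.091 for Cenpt to 0.46 ± 0.18 for Cenpi, which was 0.27 without control replicate 1. Cenpi measured 3.04, 4.42 and 5.66 FPKM in controls and 6.42, 5.49 and 6.87 FPKM in treated libraries, so that control replicate 3 overlapped the treated range. Cenpt, a histone-fold protein that links the inner kinetochore directly to the NDC80 complex, measured 11.2, 10.8 and 12.6 FPKM and 12.4, 11.3 and 11.3 FPKM. Control replicate 3 was its highest library, and the sign turned to -0.02 without control replicate 2. Its histone-fold partner Cenpw averaged 6.39 ± 0.439 FPKM in controls and 8.05 ± 0.968 FPKM in treated libraries (SD, n = 3), with every treated library above every control and a log2 fold change of 0.29 ± 0.11. Cenpl and Cenpn, which contact the CENP-A nucleosome, had means of 5.34 ± 0.375 and 9.96 ± 1.00 FPKM in controls and 7.25 ± 1.11 and 12.7 ± 0.261 FPKM after treatment (SD, n = 3), with no overlap in either. Exons of Cenpk, Cenpo and Cenpu overlap genes on the opposite strand (Ppwd1, Adcy3 with Ptrhd1, and Primpol), which leaves their values uncertain. By level per length, Cenph was the highest network gene among the 40 at 18.0 FPKM over the 6 libraries and Cenpu the lowest of all 40 at 3.12 FPKM. Levels thus differed widely between genes whose products share a complex.

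The outer KMN network, which joins KNL1, the MIS12 complex and the NDC80 complex, was represented by 8 genes. All 8 had a higher mean after treatment with a median log2 fold change of 0.33. An unadjusted p under 0.05 was met by 5 (background 4.46%), 0 passed the adjusted test, and 6 had groups without overlap (background 7.48%). The rule left out the MIS12 complex subunit Pmf1 and the KNL1 partner Zwint. Their log2 fold changes were 0.049 ± 0.088 and 0.050 ± 0.092, with overlapping groups, so the counts above do not cover the whole network. Nsl1, a subunit of the MIS12 complex that bridges inner and outer layers (chromosome 1, 191063021 to 191084558, plus strand, 6 exons), measured 7.02, 8.93 and 8.67 FPKM in controls and 10.7, 10.4 and 10.9 FPKM in treated libraries. The treated libraries were nearly equal and all above the controls, with a log2 fold change of 0.35 ± 0.10 (adjusted p = 0.259; 0.25 without control replicate 1). Nuf2, of the microtubule-binding head of the NDC80 complex (chromosome 1, 169497934 to 169531464, minus strand, 14 exons), gave 8.50, 13.3 and 11.0 FPKM in controls and 13.9, 15.9 and 16.7 FPKM in treated libraries. This was the largest log2 fold change of the 40, 0.48 ± 0.15 (adjusted p = 0.294), although treated replicate 1 exceeded control replicate 2 only narrowly and the value was 0.33 without control replicate 1. Spc25, which anchors the other end of that complex (chromosome 2, 69193895 to 69206190, minus strand, 6 to 7 exons), measured 12.8, 20.4 and 17.5 FPKM and 22.5, 22.7 and 24.7 FPKM. Its groups did not overlap, and the log2 fold change of 0.46 ± 0.15 (adjusted p = 0.321) was 0.29 without control replicate 1.

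By level per length, the 4 NDC80 subunits stood at means over the 6 libraries of 17.7 FPKM for Ndc80, 13.2 for Nuf2, 21.8 for Spc24 and 20.1 for Spc25. Casc5, the scaffold KNL1 on which checkpoint kinases dock, measured 3.16, 6.36 and 5.24 FPKM in controls and 6.48, 5.75 and 6.73 FPKM in treated libraries. Control replicate 1 was the lowest library, control replicate 3 also lay under every treated library, and the log2 fold change of 0.34 ± 0.19 was 0.11 without control replicate 1. Dsn1 (0.15 ± 0.10; 0.061 without control replicate 1) and Mis12 (0.20 ± 0.089) had the smallest differences of the 8 genes, and exons of Mis12 overlap Derl2 on the opposite strand.

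SKA subunits, which follow the ends of microtubules, showed no overlap between the groups in 3 of 3 genes (background 7.48%). Ska1, the microtubule-binding subunit (chromosome 18, 74195299 to 74207818, minus strand, 7 exons), measured 2.29, 2.93 and 2.99 FPKM in controls and 4.05, 3.73 and 3.89 FPKM in treated libraries, a log2 fold change of 0.39 ± 0.11 (adjusted p = 0.224; 0.30 without control replicate 1). Ska2, a small core subunit (chromosome 11, 87109261 to 87122974, plus strand, 4 exons), gave 27.3, 34.6 and 35.4 FPKM and 37.8, 43.0 and 41.9 FPKM, with a log2 fold change of 0.33 ± 0.12 (adjusted p = 0.368; 0.22 without control replicate 1). Ska3, the subunit phosphorylated in mitosis for docking on NDC80 (chromosome 14, 57806561 to 57826163, minus strand, 9 exons), gave 7.11, 10.1 and 9.37 FPKM and 11.1, 11.1 and 11.0 FPKM, with 0.30 ± 0.12 (adjusted p = 0.473; 0.17 without control replicate 1). Control replicate 1 was lowest for each of these genes. Ska2 stood far above Ska1 and Ska3 in level per length, at 36.7 FPKM against 3.31 and 9.97 FPKM over the 6 libraries.

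For every gene of the RZZ complex and the fibrous corona the groups overlapped. RZZ gathers dynein and the MAD1 and MAD2 proteins at kinetochores without microtubules, and 0 of its 3 genes had groups without overlap (background 7.48%). Its scaffold gene Kntc1, which encodes ROD (chromosome 5, 123749726 to 123821593, plus strand, 64 exons) measured 3.73, 6.11 and 5.81 FPKM in controls and 7.62, 6.02 and 7.16 FPKM in treated libraries, and the log2 fold change of 0.37 ± 0.16 (adjusted p = 0.552) was 0.18 without control replicate 1. Zwilch, the subunit that binds ROD (chromosome 9, 64137144 to 64172931, minus strand, 19 exons), gave 6.10, 9.95 and 10.8 FPKM and 10.7, 10.2 and 12.8 FPKM, and its value went from 0.33 ± 0.19 (adjusted p = 0.719) to 0.10. In both genes control replicate 1 was low and the other controls lay within or close to the treated range. Zw10, which also serves in membrane traffic (chromosome 9, 49055581 to 49078773, plus strand, 16 exons), was close to level, with 12.4, 14.6 and 14.0 FPKM and 14.6, 14.1 and 14.7 FPKM (0.078 ± 0.088, adjusted p = 0.969; 0.013 without control replicate 1). Exons of Zwilch overlap Lctl on the opposite strand. The median of the 3 genes was 0.33 with all libraries, 0.10 without control replicate 1 and 0.18 with array weights.

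Cenpf, a large coiled-coil protein of the corona (chromosome 1, 189640614 to 189688086, minus strand, 18 exons), measured 5.11, 9.04 and 8.59 FPKM in controls and 11.8, 7.97 and 11.0 FPKM in treated libraries. Cenpe, the kinesin that carries chromosomes toward the spindle equator (chromosome 3, 135212563 to 135273540, plus strand, 46 exons), gave 6.03, 11.2 and 10.5 FPKM and 13.02, 10.5 and 12.3 FPKM. Treated replicate 2 lay below control replicate 2 in both genes, and their groups overlapped. Their log2 fold changes were 0.41 ± 0.21 (adjusted p = 0.645) and 0.37 ± 0.20 (adjusted p = 0.679), and 0.18 and 0.12 without control replicate 1. Both have long transcripts, of 11122 and 7813 nt, the class in which that library was low over all genes. With the length trend removed the values were 0.37 and 0.34.

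Of 6 checkpoint genes, all had a higher mean after treatment, with a median log2 fold change of 0.33 (0.21 without control replicate 1). An unadjusted p under 0.05 was met by 4 (background 4.46%), 0 passed the adjusted test, and 5 had groups without overlap (background 7.48%). Mad2l1, which binds CDC20 to hold the anaphase-promoting complex inactive (chromosome 6, 66535468 to 66540991, plus strand, 5 exons), measured 26.2, 32.5 and 32.3 FPKM in controls and 38.6, 40.3 and 40.8 FPKM in treated libraries. The treated libraries lay close together and above all controls, whereas control replicate 1 lay well under the other controls. The log2 fold change was 0.39 ± 0.10 (adjusted p = 0.208), and 0.29 without control replicate 1. Bub1, a kinase that marks centromeric histone H2A (chromosome 2, 127800200 to 127831859, minus strand, 25 exons), gave 7.56, 11.8 and 11.4 FPKM and 15.6, 13.7 and 14.1 FPKM, with 0.48 ± 0.15 (adjusted p = 0.311; 0.29 without control replicate 1). Bub1b, whose product BUBR1 sits in the mitotic checkpoint complex with MAD2 and BUB3 (chromosome 2, 118598211 to 118641592, plus strand, 23 exons), gave 23.9, 32.8 and 29.6 FPKM and 38.6, 34.4 and 34.7 FPKM, with 0.32 ± 0.12 (adjusted p = 0.434; 0.20 without control replicate 1). In Bub1 and Bub1b control replicate 1 lay well under the other controls, and all treated libraries lay above all controls.

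The kinase gene Ttk, at the top of the checkpoint, measured 9.44, 14.2 and 13.1 FPKM and 15.0, 15.2 and 16.6 FPKM, without overlap (0.34 ± 0.14; 0.18 without control replicate 1). Bub3, the most abundant checkpoint transcript per length, measured 53.3, 51.4 and 47.0 FPKM and 59.7, 59.1 and 55.1 FPKM. Its control replicate 1 was the highest control, and its log2 fold change was 0.19 ± 0.088 with all libraries and 0.23 without that replicate. Mad1l1, the kinetochore anchor of MAD2, measured 17.2, 19.1 and 16.8 FPKM and 18.9, 19.1 and 17.3 FPKM with overlapping groups (0.057 ± 0.089). The anchor Mad1l1 and its partner Mad2l1 thus had different values, a difference between genes that was not tested.

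Both shugoshins, which guard centromeric cohesin until anaphase, were higher in every treated library than in any control (background 7.48%). Sgol1 (chromosome 17, 53674787 to 53689315, minus strand, 9 exons) measured 6.40, 8.87 and 9.02 FPKM in controls and 10.2, 10.8 and 11.4 FPKM in treated libraries, a log2 fold change of 0.39 ± 0.13 (adjusted p = 0.323; 0.25 without control replicate 1). Sgol2 (chromosome 1, 57985340 to 58026277, plus strand, 6 to 9 exons) gave 5.03, 8.98 and 7.39 FPKM and 9.85, 9.56 and 9.48 FPKM, with 0.42 ± 0.17 (adjusted p = 0.469; 0.22 without control replicate 1). The treated values of Sgol2 lay within a narrow band, whereas its controls were spread out with replicate 1 lowest. Cenpv, which belongs to none of these complexes (chromosome 11, 62524944 to 62539261, minus strand, 5 exons), had the most negative log2 fold change of the 40, -0.11 ± 0.18 (adjusted p = 0.987). It measured 4.41, 3.35 and 3.55 FPKM in controls and 3.97, 4.18 and 2.31 FPKM in treated libraries, with treated replicate 3 the lowest library, and the value was 0.10 without it. That library held an estimated 57 fragments of Cenpv, the lowest number among the 31 genes with a single transcript, for which fragments were estimated.

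At the level of annotated transcripts, no test was passed either. The 40 genes have 57 transcripts in the deposited table, and 31 genes have a single one. Of the 46 with a mean of at least 1 FPKM, 44 had a higher mean in treated libraries (background 54.2%), with a median log2 fold change of 0.33 beside 0.014 over all transcripts tested. By limma 0 passed an adjusted p under 0.05 (background 0.00692%), 27 had an unadjusted p under 0.05 and were higher (background 3.8%), and 31 had groups without overlap (background 6.9%). The lowest adjusted p was 0.297. Of the 9 genes with more than one transcript, 3 had a transcript whose share of the gene did not overlap between groups (background 14.8% of 2622 genes with a transcript at 5 to 95% of the gene). FPKM splits fragments between transcripts by a model, so shares of transcripts that differ in few exons are uncertain.

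The 1582-nt transcript of Spc25 made up 5.90%, 12.9% and 9.95% of the gene in controls and 17.8%, 14.1% and 13.2% in treated libraries. Its level was 1.71 ± 0.937 FPKM in controls and 3.49 ± 0.455 FPKM after treatment (SD, n = 3), while the main transcript of 1348 nt held most of the gene in every library. For Cenpm, the 1203-nt transcript was 5.9995%, 7.39% and 9.68% in controls and 11.8%, 14.0% and 10.7% in treated libraries. In Cenpl the 4327-nt transcript had a smaller share after treatment, 12.1%, 12.4% and 12.1% against 8.16%, 10.2% and 8.97%. Its own level was flat, at 0.651 ± 0.0453 and 0.656 ± 0.0584 FPKM, and the difference in the gene lay in its 1790-nt transcript, at 4.69 ± 0.330 and 6.60 ± 1.08 FPKM. In Cenpk the 1222-nt coding transcript measured 4.23 ± 1.25 and 5.98 ± 0.376 FPKM and a noncoding one of 1358 nt 4.17 ± 0.193 and 4.55 ± 1.02 FPKM, with shares that overlapped between groups. Bub1 divided over transcripts of 4337 and 4334 nt, which differ by few bases. Cenpa was carried mainly by a 1501-nt transcript, 75.4% of the gene in controls and 73.8% in treated libraries.

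**Figure D3:**
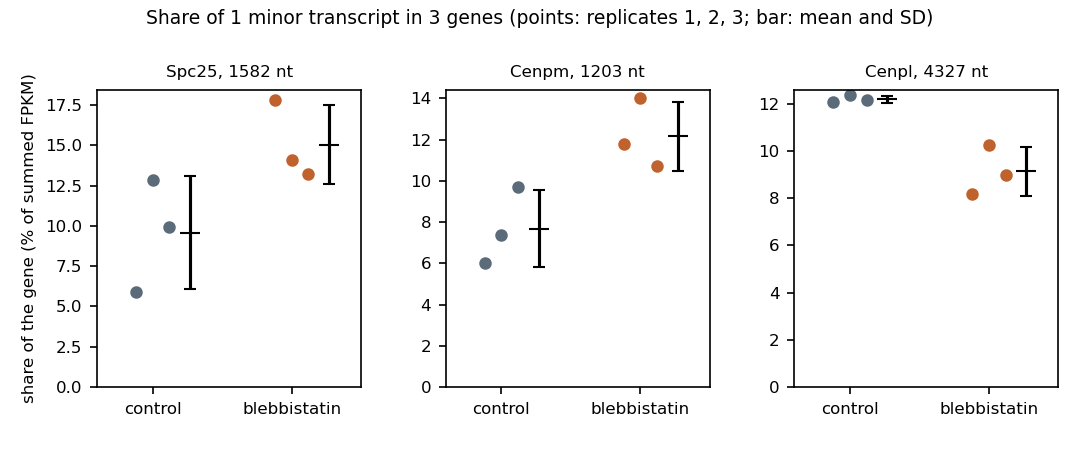
Share of 1 minor transcript in its gene (vertical axis, % of FPKM summed over transcripts) in control and blebbistatin libraries (horizontal axis) for Spc25, Cenpm and Cenpl. Points are replicates 1, 2 and 3, and bars are the mean and SD: the Spc25 share is 9.58 ± 3.50% in controls and 15.0 ± 2.46% in treated libraries, and the Cenpl share is 12.2 ± 0.149% and 9.13 ± 1.05%.

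Length classes were read for the 40 genes beside all genes because of control replicate 1. Over all genes tested, the median log2 fold change was 0.0086 under 1500 nt and 0.033 at 5000 nt and over. The 10 shortest of the 40 genes, under 1500 nt, had a median log2 fold change of 0.32, and control replicate 1 deviated by -0.32 in them although it was at 0.17 over all short genes. In the 4 genes of 5000 nt and over (Cenpf, Cenpe, Kntc1 and Casc5) it deviated by -0.65, and the median log2 fold change was 0.37. Those 4 genes are too few to set a trend.

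**Figure D4:**
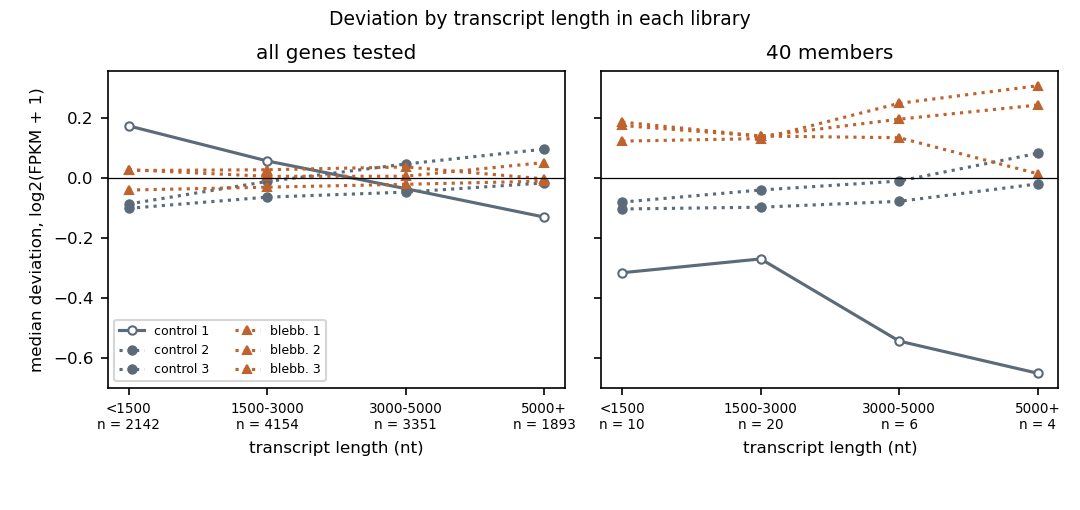
Median deviation of log2(FPKM + 1) from the gene mean (vertical axis) by transcript length (horizontal axis, nt) in each library, for all genes tested (left) and the 40 genes (right). Control replicate 1 runs from 0.17 to -0.13 with length over all genes, and lies at -0.32 in the shortest class and -0.65 in the longest class of the 40.

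Other genes of chromosome segregation and the cell cycle were set beside the 40 as lists, and limma called 0 genes in each of the 7 lists (background 0.078%). Over all genes tested, 55.2% had a higher mean, and 4.46% were higher with an unadjusted p under 0.05. Means were higher in treated libraries for 24 of 25 other kinetochore and centromere factors (median log2 fold change 0.17; 8 with an unadjusted p under 0.05), among them Spdl1, the dynein adaptor Spindly, at 8.05 ± 0.736 and 11.1 ± 0.859 FPKM (mean ± SD, n = 3; 0.41 ± 0.099, adjusted p = 0.170), and the depolymerizing kinesin Kif2c at 25.4 ± 2.92 and 32.7 ± 1.59 FPKM (0.36 ± 0.10). The chromosomal passenger complex, whose kinase corrects faulty attachments, had 4 of 4 higher, 2 with an unadjusted p under 0.05 and a median of 0.34. Its named genes were Aurkb, the kinase, with 0.41 ± 0.13, and Birc5, survivin, with 0.40 ± 0.11. Condensin had 8 of 8 higher, 4 with an unadjusted p under 0.05 and a median of 0.30, with Ncapg at 11.5 ± 2.38 and 16.1 ± 0.470 FPKM (0.47 ± 0.14) and Ncapg2 (0.34 ± 0.14). Without control replicate 1 the medians of these 3 lists were 0.15, 0.21 and 0.17.

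Smaller medians were found in the remaining lists. Regulators of late cell cycle genes had 15 of 18 higher, 7 with an unadjusted p under 0.05 and a median of 0.16. This list holds genes of B-MYB, FOXM1 and MuvB together with E2F factors, NF-Y subunits, Rbl1 and Rbl2. Mybl2, which encodes B-MYB, was at 9.96 ± 0.349 and 12.7 ± 1.23 FPKM (0.32 ± 0.092) and the MuvB subunit Lin54 at 4.65 ± 0.996 and 6.30 ± 0.295 FPKM (0.39 ± 0.13). S phase genes had 15 of 16 higher, 4 with an unadjusted p under 0.05 and a median of 0.14, with the helicase factor Cdc45 (0.32 ± 0.079) and the ribonucleotide reductase subunit Rrm2 (0.36 ± 0.11). The anaphase-promoting complex and its targets had 15 of 22 higher, 5 with an unadjusted p under 0.05 and a median of 0.11. This list mixes subunits of the complex with its activators, ubiquitin-conjugating enzymes and targets. Its values ran from -0.072 for the subunit Anapc4 to 0.43 for the target Ccnb1, so the median describes neither kind alone. Securin (Pttg1) was at 31.4 ± 0.277 and 38.7 ± 0.557 FPKM (0.29 ± 0.076), and the ubiquitin-conjugating enzyme Ube2c had 0.33 ± 0.098. Cohesin and its regulators had 12 of 13 higher, 2 with an unadjusted p under 0.05 and a median of 0.089. Among them the acetyltransferase Esco2, at 6.34 ± 1.65 and 9.99 ± 0.608 FPKM, had a log2 fold change of 0.61 ± 0.16 (adjusted p = 0.208), above any of the 40, and sororin (Cdca5) had 0.31 ± 0.099. Without control replicate 1 the medians of these 4 lists were 0.13, 0.12, 0.078 and 0.031, and that of cohesin was 0.20 without control replicate 2. Differences between lists were not tested.

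**Figure D5:**
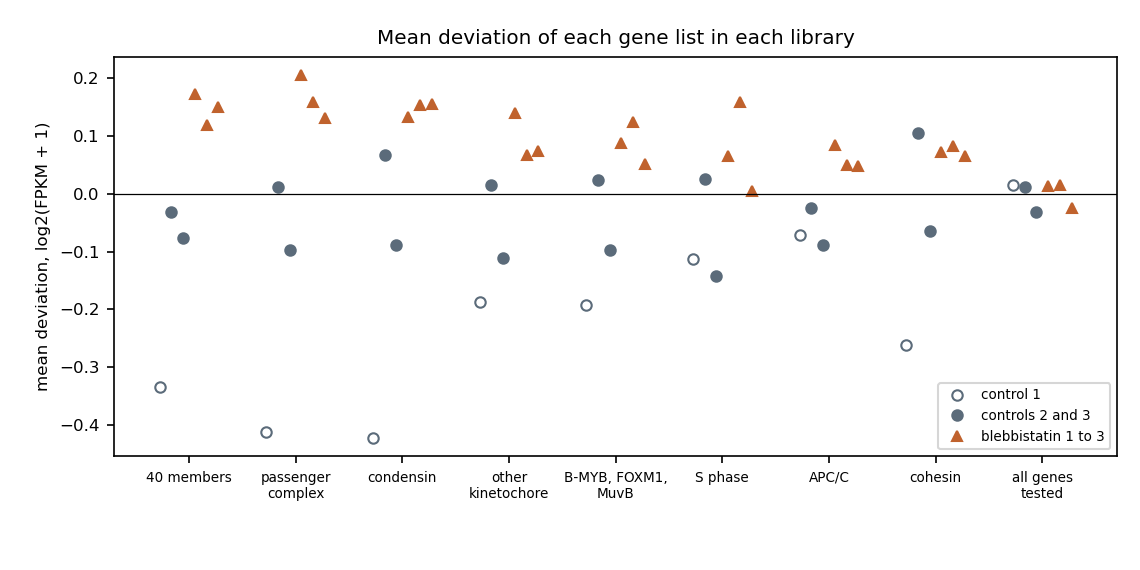
Mean deviation of log2(FPKM + 1) from the gene mean over each list (vertical axis) in each library (points), for the 40 genes, the 7 other lists and all genes tested (horizontal axis). Control replicate 1 lies at -0.33 for the 40 genes and -0.42 for condensin but at -0.11 for S phase genes, where control replicate 3 is lowest at -0.14.

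Markers of other cell types were read in the same libraries, and their part in the results was not tested. Endothelial genes summed to 0.577 to 0.717 FPKM in controls and 0.839 to 0.994 FPKM in treated libraries, with 7 of 7 under 1 FPKM throughout. Skeletal muscle genes summed to 11.1 to 17.2 and 7.51 to 10.8 FPKM. The largest part was Myh3 (7.28 to 11.2 FPKM), and the next highest muscle marker was Actc1, at 0 to 1.94 FPKM. Mesenchymal genes summed to 281 to 359 and 338 to 375 FPKM, neuronal genes to 0.544 to 2.56 and 1.17 to 2.15, leukocyte genes to 3.03 to 3.54 and 2.14 to 4.27, and erythroid genes to 1.94 to 252 and 1.12 to 70.4. The endothelial and muscle sums were the ones whose groups did not overlap, and 0 genes of any marker list passed the adjusted test.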

How the data were processed

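Per the labels' protocols, libraries were made with an Illumina TruSeq RNA kit from column-purified total RNA. The submitters' processing notes name Cufflinks 2.2.1, TopHat2 2.0.13, Bowtie2 2.2.3 and the mm10 build. The authors deposited FPKM per gene (24067) and per transcript (33819), per the file headers. BB in column names was read as blebbistatin, and unnumbered columns as replicate 1.

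The FPKM values the authors deposited are scaled to the library total, so no count model was used. Genes or transcripts with a mean of at least 1 FPKM over 6 libraries entered limma 3.58.1 as log2(FPKM + 1) (empirical Bayes with trend) in R 4.3.3, with treatment as the only term and Benjamini-Hochberg adjustment over all tested (threshold 0.05). Fold changes are blebbistatin minus control on that scale and understate those of low genes. SE is the moderated standard error. Fragments were estimated from the FPKM step of genes with 1 transcript. The fit was tested on simulated data with larger changes than those described here and independent noise. That test does not show whether changes of the size described here would be called.

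The members, the role groups, the 7 other lists and the marker lists were chosen with earlier results of these data known, so nothing is tested over a list. Named genes are the 3 of smallest p per role and the 2 of smallest p per other list, with any member against the median direction, and Cenpi, Cenpl, Cenpn, Cenpw, Casc5, Ttk, Bub3, Mad1l1, Dsn1, Mis12, Cenpt and the described transcripts were chosen after their values were seen. Alternatives were pseudocounts of 0.1 and 0.01, no minimum or 5 FPKM, 2 rescalings, array weights, a replicate block, leaving out each library and, chosen after seeing the data, removal of a length trend.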

Additional observations from a re-analysis of the deposited data

How the results depend on the processing

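No kinetochore or checkpoint gene passed under any of 15 alternatives (36 of the 40 were tested at a minimum of 5 FPKM), and the lowest adjusted p was 0.0538 (Cenpq, replicate block). The median stayed positive, from 0.22 to 0.39 with 1 library left out and from 0.25 (array weights) to 0.35 (pseudocount 0.01) otherwise. Of 596 gene values under alternatives, 590 kept their direction and 6 reversed, in 3 genes: Cenpb ranged from -0.182 to 0.0421, Cenpv from -0.226 to 0.0957 and Cenpt from -0.0238 to 0.0821 with 1 library left out, and Cenpt was -0.0247 with array weights. The number of members with an unadjusted p under 0.05 and higher, 25, ranged from 16 to 27 with 1 library left out.

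Over the whole table, 9 genes passed. The count was 1 with no filter, 27 at a minimum of 5 FPKM, 2 after median-of-ratios rescaling, 14 after quantile normalization, 57 with array weights, 19 with the length trend removed, and 1 to 13 with 1 library left out (1 without control replicate 1). For transcripts, 1 passed, with 9 under no filter, 2 at 5 FPKM, 3 after quantile normalization and 1 to 11 with 1 library left out (11 without control replicate 3). The cause was not tested.

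With the replicate number as a block, 144 genes passed (53 higher, 91 lower) and 0 members did. Deviations of same-numbered libraries correlated at 0.18, 0.094 and 0.25, so the numbers were not taken to pair the libraries, although each library correlated best with its own number, a hint from the data and not from the design.

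The counts behind these values are estimates, since FPKM was used: 57 fragments or more per library in the 31 members with a single transcript. With 3 libraries per group, each spread rests on few values, and replicates may be technical. Long genes such as Cenpf and Cenpe stood lowest in control replicate 1, which was also low for long transcripts over all genes. Members under 1500 nt were low in that library too, with a median deviation of -0.32 against 0.17 over all such genes. The reason was not tested.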
